A study of Homo sapiens with 6 samples.

Results

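The mitochondrial ribosomal protein genes were compared between A549-TIPARP cells and A549-GFP cells. Members were all entries whose symbol is MRPL or MRPS followed by a number and, for some, a letter A to C, which gave 78 genes of the 53826 entries listed for each library. All 78 exceeded 2 TPM (abundance scaled for transcript length and for the total of the library) in at least 1 of 6 libraries and so belonged to the 13181 analysed genes. The parental line, A549, derives from a human lung adenocarcinoma. A549-TIPARP cells carried a retroviral vector for stable overexpression of TIPARP, a mono-ADP-ribosyltransferase whose gene responds to the aryl hydrocarbon receptor, and A549-GFP cells carried the same type of vector with GFP as the control. Each line was sequenced as 3 replicates numbered by experiment. Nothing in the sources used here says that the replicates were separate transductions, so p-values measure the spread between these libraries. A clone is not mentioned, and the vector means that TIPARP was driven by a viral promoter and not by its own.

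TIPARP itself had A549-GFP values of 6.79, 11.4 and 3.68 TPM and A549-TIPARP values of 131, 90.5 and 123 TPM, in the order of replicates 1, 2 and 3 that is kept for every gene below, a 17.2-fold difference (limma adjusted p = 0.0125). Of 6 epithelial markers, 5 exceeded 2 TPM, whereas 6 of 6 endothelial markers and 5 of 7 stromal markers were at the lowest listed value in every library. The epithelial markers summed to between 10771.4 and 23386.4 TPM in A549-GFP cells and between 18533.4 and 22170.5 TPM in A549-TIPARP cells. COL1A1 was the only stromal marker above 2 TPM, and the stromal markers summed to between 1.09 and 1.44 TPM in A549-GFP cells and between 1.64 and 2.56 TPM in A549-TIPARP cells. Blood cell markers summed to between 29.2 and 74.1 TPM in A549-GFP cells and between 28.1 and 41.7 TPM in A549-TIPARP cells, and those above 2 TPM were CD68 and CD14. The part of these markers in the results below was not tested. The tables hold no read counts, and sequencing depth is therefore unknown.

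The mitochondrial ribosome, or mitoribosome, translates the few messenger RNAs of the mitochondrial genome, which encode core subunits of the oxidative phosphorylation complexes. Its ribosomal RNAs are mitochondrial, but all of its proteins are encoded in the nucleus, made in the cytosol and imported. Many descend from bacterial ribosomal proteins, and others are specific to mitochondria and line the outside of the particle. Of the 78 genes, 30 encode large subunit proteins with a bacterial counterpart, 21 encode mitochondria-specific large subunit proteins, 16 encode small subunit proteins with a bacterial counterpart, and 10 encode mitochondria-specific small subunit proteins. The remaining gene, MRPS36, encodes a protein now assigned to the 2-oxoglutarate dehydrogenase complex.

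No mitochondrial ribosomal protein gene differed significantly between A549-TIPARP cells and A549-GFP cells. Using limma on log2(TPM + 1) over all 13181 genes, 0 of 78 passed an adjusted p of 0.05 and 0 had an unadjusted p under 0.05. Of all analysed genes, 0.0152% passed the adjusted threshold, and at the unadjusted one 2.97% were higher and 0.88% lower in A549-TIPARP cells. The smallest unadjusted p was 0.0668, for MRPS10, and no member had a limma adjusted p below 0.994. None exceeded a 2-fold difference of the mean deposited log2 values, a limit that 1.53% of all analysed genes passed upward and 0.432% downward. The mean was lower in A549-TIPARP cells for 68 of 78 genes and higher for 10, beside a lower mean for 59.9% of all analysed genes. The log2 fold change ranged from -0.45 for MRPS10 to 0.58 for MRPS24 with a median of -0.16, and the median of all analysed genes was -0.066. Without A549-GFP replicate 3 both medians were -0.17, whereas without A549-GFP replicate 2 they were -0.17 for the members and 0.047 for all analysed genes, and without A549-TIPARP replicate 2 they were -0.23 and -0.089. With 3 libraries against 3, an exact permutation test on a single gene cannot go below p = 0.1.

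Of the 78 genes, 10 (12.8%) had all 3 A549-TIPARP values below all 3 A549-GFP values, beside 3.54% of all analysed genes, and 0 had all 3 above, beside 5.36%. The 10 were MRPL15, MRPL18, MRPL36, MRPL40, MRPL46, MRPS15, MRPS16, MRPS17, MRPS18B and MRPS25, of which MRPL36, MRPL46, MRPS18B and MRPS25 were named by rule and the others were picked out after their values were seen. After rescaling of the libraries by their median ratios, 4 of the 78 genes (5.13%) had lower A549-TIPARP values without overlap, beside 5.02% of all analysed genes, so the share of the members was then that of the background. The share also depended on the library left out: without A549-GFP replicate 3 it was 21.8% of the members beside 23.5% of all analysed genes. Without A549-GFP replicate 1 or replicate 2 it was 28.2% beside 5.77% or 6.42%, and without A549-TIPARP replicate 1, 2 or 3 it was 21.8% beside 5.21%, 28.2% beside 7.97% or 14.1% beside 5.48%. After GC correction it was 16.7% beside 7.07%.

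**Figure D1:**
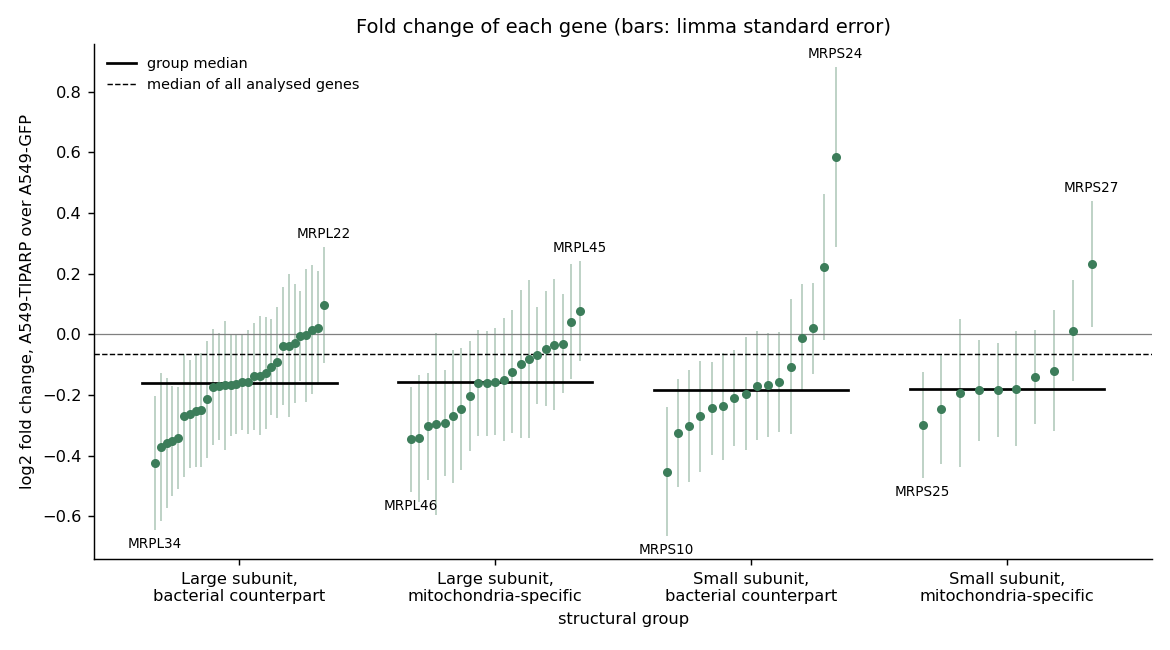
Log2 fold change (A549-TIPARP over A549-GFP, y axis) of the 77 structural mitochondrial ribosomal protein genes in 4 structural groups (x axis). Points are differences of the mean deposited log2 TPM of 3 libraries per line, bars show the limma standard error, thick lines show group medians and the dashed line shows the median of all 13181 analysed genes. All 4 group medians lie between -0.18 and -0.16, and MRPS24 stands highest at 0.58.

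The lower values were unevenly spread over the libraries. A549-TIPARP replicate 3 also stood apart in composition. Entries picked by their symbols, called small RNA entries here, held 13.9% of its TPM (8.66% to 11.995% in the others). They included the mitochondria-like nuclear entries MIR6723 and MTRNR2L, so the class is not small RNA alone. MIR6723 by itself held 9.78% (5.52% to 7.93% in the others). The part of this in the values of the members was not tested beyond the removal of the small RNA entries, after which the median log2 fold change was -0.15. A549-TIPARP replicate 3 was the lowest of 6 libraries for 57 of 78 members (73.1%), while it was the lowest for 23.4% of all analysed genes. In that library 70 of 78 members were below the mean of the other A549-TIPARP libraries, with a median difference of -0.30 on the log2 scale, and the corresponding median over all analysed genes was -0.051. MRPS24 deviated most (-1.09), followed by MRPL51 (-0.68), MRPS18C (-0.67) and MRPL27 (-0.62), whereas MRPL10 (0.33), MRPS27 (0.25) and MRPL34 (0.21) were higher there than in the other A549-TIPARP libraries. Without A549-TIPARP replicate 3, the median log2 fold change of the members was -0.077, beside -0.036 for all analysed genes, and 55 of 78 had a lower mean.

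The summed TPM of the members was 8807, 9137 and 9200 in the A549-GFP line and 8579, 8933 and 7034 in the A549-TIPARP line. The mean sum was 9048 ± 211 TPM (SD, n = 3) in A549-GFP cells and 8182 ± 1010 TPM (SD, n = 3) in A549-TIPARP cells, and 8756 ± 250 TPM (SD, n = 2) in the latter without replicate 3. All A549-TIPARP sums except that of replicate 2 were below every A549-GFP sum. Large subunit genes summed to 1.96, 1.99 and 2.02 times the small subunit genes in A549-GFP replicates 1, 2 and 3 and to 1.90, 1.93 and 1.92 times in A549-TIPARP replicates 1, 2 and 3. All A549-TIPARP ratios were below the lowest A549-GFP ratio, but this rested on MRPS24, whose values are described below. Without MRPS24 the ratios were 2.06, 2.10 and 2.16 and then 2.13, 2.15 and 2.05, and with the read-through entry of that locus added they were 1.88, 1.92 and 1.93 and then 1.90, 1.93 and 1.83, so that the lines overlapped either way. In bulk RNA, fewer transcripts per cell and a larger share taken by other transcripts cannot be told apart.

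A549-GFP replicate 2 differed from the other A549-GFP libraries by a median of 0.38 over all analysed genes, but by -0.049 over the members. It was the highest library for 33 of 78 members and the lowest for 10, while over all analysed genes it was the highest for 52.0% and the lowest for 13.7%. MRPL54 was listed at 189 TPM in A549-GFP replicate 2 and between 78.8 and 104 TPM in the other 5 libraries, and MRPS33 at 210 TPM there and between 111 and 132 TPM elsewhere. Both were picked after their values were known. At the other end, the log2 difference between A549-GFP replicate 2 and the mean of the other A549-GFP libraries was -0.70 for MRPS9, -0.58 for MRPS27 and -0.55 for MRPL11.

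**Figure D2:**
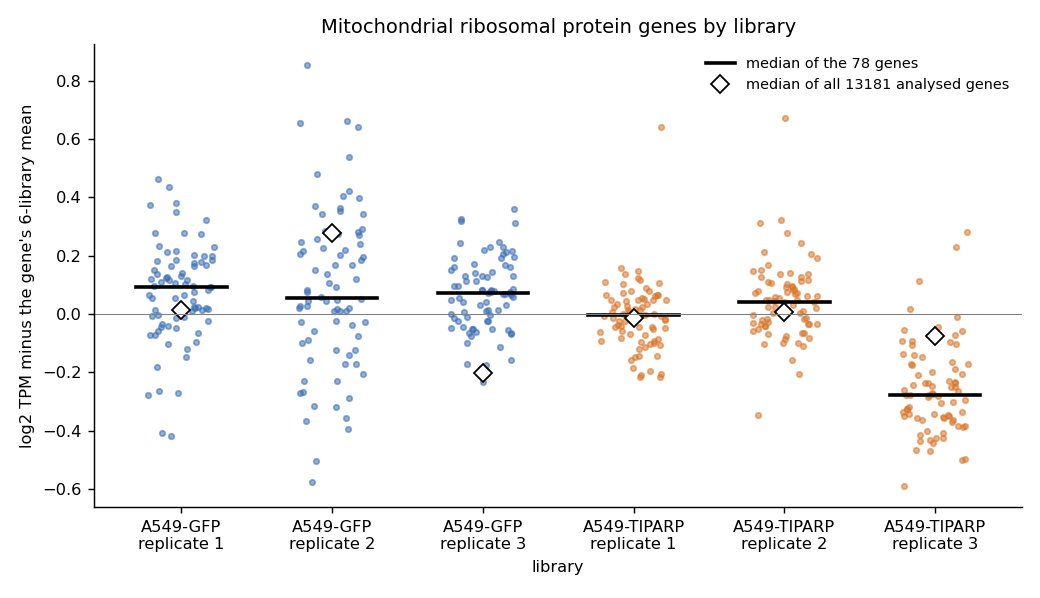
Log2 TPM of each of the 78 genes minus its mean over 6 libraries (y axis) in each library (x axis). Points are genes, spread sideways at random, black lines are the medians of the 78 genes and diamonds are the medians of all 13181 analysed genes. In A549-TIPARP replicate 3 the median of the 78 genes is -0.28 while that of all analysed genes is -0.077, and in A549-GFP replicate 2 they are 0.055 and 0.28.

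Among the 30 large subunit proteins with a bacterial counterpart, the A549-TIPARP mean was lower for 27 and higher for 3, with a median log2 fold change of -0.16. MRPL34, a small protein buried in the ribosomal RNA, had A549-GFP values of 95.8, 162 and 108 TPM and A549-TIPARP values of 88.1, 80.4 and 97.4 TPM (log2 fold change -0.42, limma adjusted p = 0.994). A549-GFP replicate 2 was far above the rest, and the lines overlapped. MRPL55, at 57.7, 109 and 80.1 TPM and then 65.6, 65.2 and 54.4 TPM, had the same high control library and a log2 fold change of -0.37. Without A549-GFP replicate 2, the limma log2 fold change was -0.20 for MRPL34 and -0.14 for MRPL55. MRPL27, a protein near the peptidyl transferase centre, had A549-GFP values of 178, 236 and 213 TPM and A549-TIPARP values of 185, 189 and 122 TPM (log2 fold change -0.36). Its lowest value came from A549-TIPARP replicate 3, without which the limma log2 fold change was -0.15.

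MRPL36, a short protein of the large subunit, had A549-GFP values of 85.0, 114 and 92.2 TPM and A549-TIPARP values of 84.3, 73.8 and 69.0 TPM (log2 fold change -0.35). The lines did not overlap, though A549-GFP replicate 1 and A549-TIPARP replicate 1 were nearly equal, and the limma log2 fold change was -0.23 without A549-GFP replicate 2. MRPL22, which lines the exit tunnel for the new peptide, was the lowest of all members by level, at 20.1, 16.5 and 19.8 TPM and then 21.0, 21.2 and 18.0 TPM, with a log2 fold change of 0.10 that was 0.0051 in limma without A549-GFP replicate 2.

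The stalk of the large subunit, which recruits translation factors, holds MRPL10, MRPL11 at its base and copies of MRPL12. MRPL12 was the highest of all members by level, at 462, 433 and 508 TPM and then 422, 463 and 309 TPM (log2 fold change -0.25, and -0.077 in limma without A549-TIPARP replicate 3). MRPL10 was listed at 59.2, 77.2 and 64.5 TPM and then 60.1, 65.2 and 78.6 TPM, with a log2 fold change of 0.021. MRPL11 was listed at 115, 80.7 and 122 TPM and then 109, 121 and 85.3 TPM, with a log2 fold change of -0.0039. Without A549-TIPARP replicate 3 the limma log2 fold change was -0.087 for MRPL10 and 0.14 for MRPL11. Within each line the genes of this stalk did not order the libraries alike: A549-TIPARP replicate 3 was the lowest library of its line for MRPL11 and MRPL12 and the highest for MRPL10.

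Of the 21 mitochondria-specific large subunit proteins, the A549-TIPARP mean was lower for 19 and higher for 2, with a median log2 fold change of -0.16. MRPL46 had the largest difference of this group, with A549-GFP values of 109, 130 and 108 TPM and A549-TIPARP values of 95.9, 99.4 and 78.3 TPM (log2 fold change -0.35, limma SE 0.17, unadjusted p = 0.0816, adjusted p = 0.994). All A549-TIPARP values were below the lowest A549-GFP value. MRPL45, which sits at the tunnel exit facing the inner membrane, was listed at 76.2, 65.4 and 79.4 TPM and then 73.1, 77.9 and 81.5 TPM (log2 fold change 0.078, and -0.0058 in limma without A549-GFP replicate 2). MRPL51, the third highest member by level, was listed at 392, 312 and 484 TPM and then 398, 457 and 266 TPM (log2 fold change -0.097, and 0.13 in limma without A549-TIPARP replicate 3), so that its range within each line was wider than the difference between them.

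Among the 16 small subunit proteins with a bacterial counterpart, the A549-TIPARP mean was lower for 13 and higher for 3, with a median log2 fold change of -0.18. MRPS10, a protein of the head of the small subunit, had the lowest fold change of all members, with A549-GFP values of 61.4, 78.6 and 52.4 TPM and A549-TIPARP values of 47.5, 53.0 and 39.1 TPM (log2 fold change -0.45, limma SE 0.21, adjusted p = 0.994). The highest A549-TIPARP value just exceeded the lowest A549-GFP value, and the limma log2 fold change was -0.29 without A549-GFP replicate 2. MRPS9, a protein whose bacterial counterpart reaches towards the peptidyl tRNA, was listed at 79.6, 45.4 and 68.3 TPM and then 75.5, 84.8 and 61.1 TPM, a log2 fold change of 0.22 that was -0.011 without A549-GFP replicate 2. MRPS14 was among the lowest members by level and among the steadiest, at 23.5, 24.98 and 22.9 TPM and then 23.8, 24.9 and 22.2 TPM (log2 fold change -0.011, and 0.023 and 0.032 in limma without A549-GFP replicate 2 and without A549-TIPARP replicate 3).

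For the 10 mitochondria-specific small subunit proteins, the A549-TIPARP mean was lower in 8 cases and higher in 2, with a median log2 fold change of -0.18. MRPS27, a pentatricopeptide repeat protein, was listed at 77.4, 51.2 and 76.1 TPM and then 72.4, 76.4 and 88.4 TPM (log2 fold change 0.23), and the value without A549-GFP replicate 2 was 0.036. MRPS25 had the most negative fold change of this group (log2 fold change -0.30), with 29.2, 29.97 and 27.6 TPM and then 22.5, 25.1 and 22.9 TPM. These ranges were narrow and did not overlap. MRPS31 was the second lowest member by level, at 25.2, 28.2 and 20.9 TPM and then 21.3, 25.4 and 21.5 TPM (log2 fold change -0.12), and MRPS34 the second highest, at 414, 422 and 470 TPM and then 418, 420 and 319 TPM (log2 fold change -0.18). The limma log2 fold change was -0.019 for MRPS31 without A549-GFP replicate 2 and -0.054 for MRPS34 without A549-TIPARP replicate 3.

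The MRPS18 paralogues encode relatives of 1 bacterial protein, with MRPS18A in the large subunit and MRPS18B and MRPS18C in the small subunit. In the groups above only MRPS18C is counted as having a bacterial counterpart, and MRPS18A and MRPS18B are counted as mitochondria-specific. MRPS18A was listed at 63.1, 77.9 and 69.1 TPM and then 66.2, 66.2 and 55.4 TPM (log2 fold change -0.16). MRPS18B was listed at 120, 139 and 123 TPM and then 112, 118 and 106 TPM (log2 fold change -0.18), without overlap. MRPS18C was listed at 42.2, 41.1 and 36.9 TPM and then 42.7, 44.1 and 27.3 TPM (log2 fold change -0.11). For MRPS18C, A549-TIPARP replicate 3 was the lowest of all libraries and the other A549-TIPARP values were the highest. The limma log2 fold change of MRPS18A was -0.080 without A549-GFP replicate 2 and -0.074 without A549-TIPARP replicate 3, that of MRPS18B was -0.12 without A549-GFP replicate 2, and that of MRPS18C was 0.11 without A549-TIPARP replicate 3. MRPS18B had the highest level of the 3 in every library and MRPS18C the lowest.

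**Figure D3:**
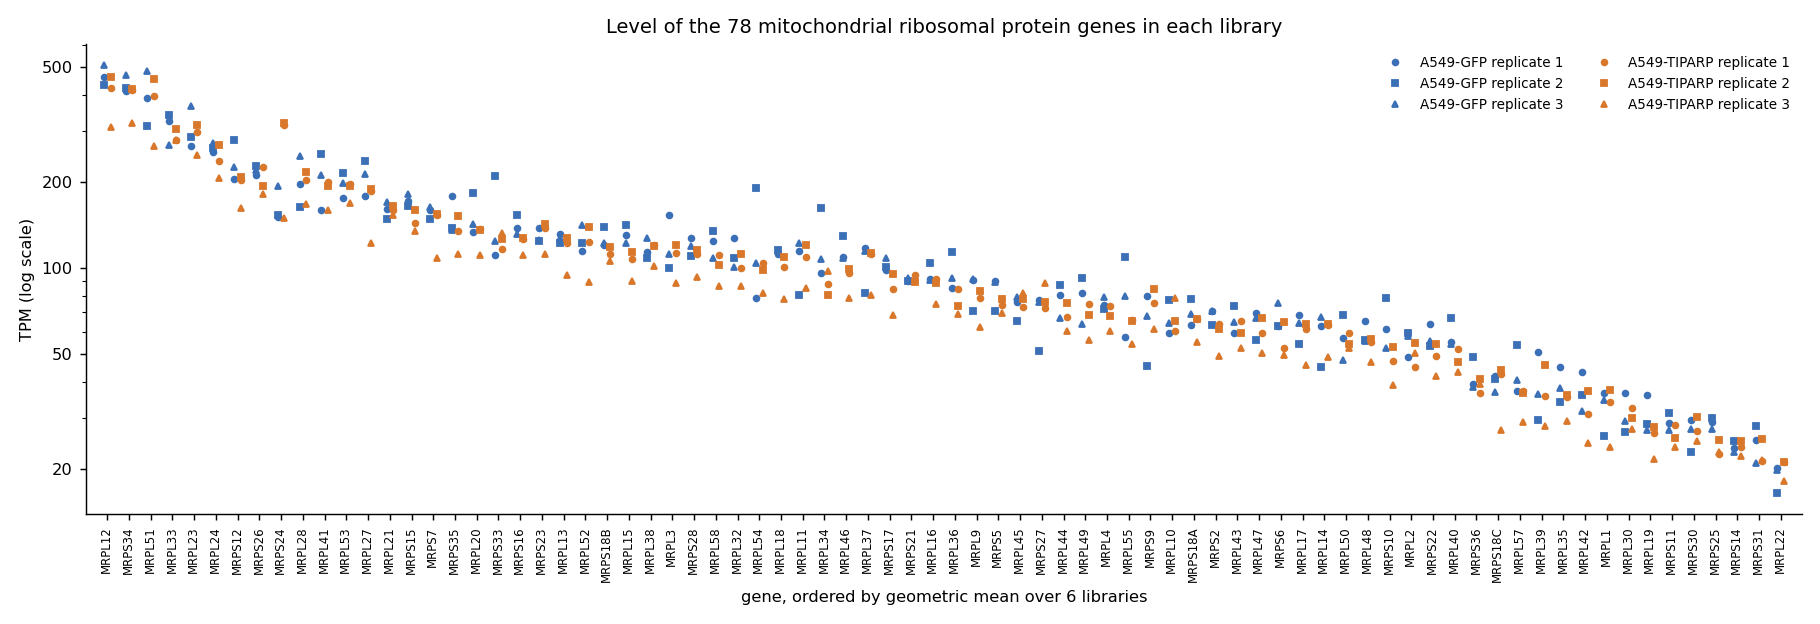
TPM (y axis, log scale) of the 78 mitochondrial ribosomal protein genes in each of 6 libraries, ordered along the x axis by their geometric mean. Blue marks are A549-GFP replicates and orange marks are A549-TIPARP replicates. Levels run from 16.5 TPM for MRPL22 to 508 TPM for MRPL12, with the orange triangles of A549-TIPARP replicate 3 mostly at the bottom and the A549-TIPARP circles and squares of MRPS24 well above its other values.

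MRPS24, a protein of the head of the small subunit, had the largest fold change of the members, and its values split within the A549-TIPARP line. The gene lies on the minus strand at chr7:43866558-43869893 (hg38). The read-through entry URGCP-MRPS24 spans chr7:43866558-43906589 and joins exons of the upstream gene URGCP, at chr7:43875894-43926411, to those of MRPS24. In the canonical GENCODE 44 transcripts, MRPS24 has 667 bases in 4 exons and the read-through has 795 bases in 7 exons. They share 3 identical exons and 606 exonic bases, which are 90.9% of MRPS24 and 76.2% of the read-through. URGCP shares 189 bases with the read-through and 0 with MRPS24. The sequences at the first shared exon show where the transcripts differ and where they are the same. The capitals are the last 39 bases of the exon before it (chr7:43869457-43869495 for MRPS24, chr7:43881659-43881697 for the read-through). In the read-through that exon is also part of URGCP. The lower case letters are the shared 69-base exon at chr7:43869308-43869376.
MRPS24: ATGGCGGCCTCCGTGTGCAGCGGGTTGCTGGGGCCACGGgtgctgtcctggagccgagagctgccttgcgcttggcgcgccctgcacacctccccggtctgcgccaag
URGCP-MRPS24: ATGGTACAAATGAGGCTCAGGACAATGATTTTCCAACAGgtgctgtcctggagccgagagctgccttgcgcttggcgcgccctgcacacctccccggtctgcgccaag
The annotated reading frame enters the shared exon in frame 0 in MRPS24, after 39 coding bases, and in frame 1 in the read-through, after 175 coding bases. The coding sequences span 501 and 330 bases, so the annotated read-through reads the first shared exon in another frame than MRPS24 does.

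MRPS24 had A549-GFP values of 151, 153 and 193 TPM and A549-TIPARP values of 314, 321 and 149 TPM. The mean log2 TPM was 7.36 ± 0.20 (SD, n = 3) in A549-GFP cells and 7.95 ± 0.63 (SD, n = 3) in A549-TIPARP cells, a difference of 0.58 (limma SE 0.30, unadjusted p = 0.0822, adjusted p = 0.994). A549-TIPARP replicates 1 and 2 were above every A549-GFP library and A549-TIPARP replicate 3 was below every one. Without A549-TIPARP replicate 3 the limma log2 fold change of MRPS24 was 0.94 (unadjusted p = 0.00143), with an adjusted p that rounded to 1, and without A549-TIPARP replicate 2 it was 0.39. URGCP-MRPS24 had A549-GFP values of 116, 120 and 148 TPM and was at the lowest listed value in A549-TIPARP replicates 1 and 2 and at 115 TPM in A549-TIPARP replicate 3 (limma log2 fold change -4.05 on log2(TPM + 1), SE 1.35, adjusted p = 0.983). The libraries in which MRPS24 was high were thus the ones in which the read-through was at the lowest listed value. The log2 fold change of the read-through was -4.71 on the deposited scale, where the lowest listed value is 1 TPM, and depends on that limit. Without A549-TIPARP replicate 3 the limma log2 fold change of the read-through was -6.00 with an adjusted p of 0.000633, but the library removed is the only A549-TIPARP one that lists the entry, so both remaining values are at the lowest listed value and fix this size and p.

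Added together, the entries came to 266, 273 and 341 TPM in the A549-GFP line and to 314, 321 and 264 TPM in the A549-TIPARP line, with values at the lowest listed level taken as 0. The log2 fold change of the sum was 0.033 (limma SE 0.17, adjusted p = 0.998). These ranges overlapped. The read-through made up 43.4%, 43.9% and 43.5% of the sum in A549-GFP replicates 1, 2 and 3 and 43.5% in A549-TIPARP replicate 3. For comparison, equal numbers of reads on transcripts of these lengths would give 45.6%. URGCP, whose own exons the read-through also uses, was listed at 20.9, 26.1 and 19.8 TPM and then 21.7, 18.1 and 22.6 TPM (log2 fold change -0.093), so it did not follow the read-through. How reads of the shared exons were divided between the entries is not given in the sources used here, and its part in the MRPS24 values was not tested.

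**Figure D4:**
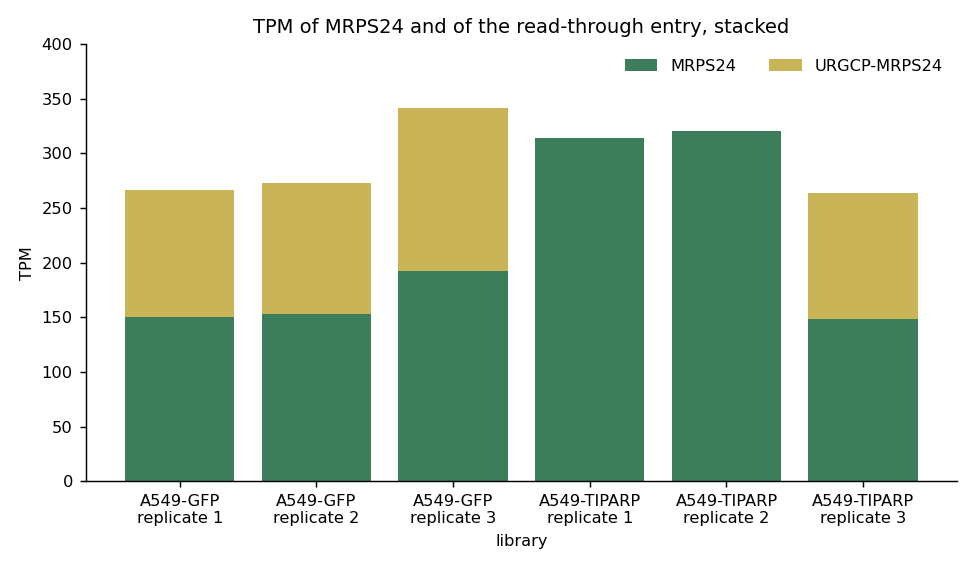
TPM (y axis) of MRPS24 (green) and URGCP-MRPS24 (yellow), stacked, in each of 6 libraries (x axis), with values at the lowest listed level drawn as 0. The stacked height is between 264 and 341 TPM in all 6 libraries, and the yellow part is absent in A549-TIPARP replicates 1 and 2.

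The same pattern was looked for among the other read-through entries. Of 129 such entries, 92 were analysed, 4 were more than 2-fold lower in A549-TIPARP cells and 0 were more than 2-fold higher, beside 0.432% and 1.53% of all analysed genes. Besides URGCP-MRPS24, CKLF-CMTM1 was at the lowest listed value in A549-TIPARP replicates 1 and 2, with 14.04 TPM in replicate 3 and 13.9, 18.3 and 16.4 TPM in A549-GFP cells. RBM14-RBM4 was at the lowest listed value in all 3 A549-TIPARP libraries and at 38.9, 42.1 and 39.5 TPM in A549-GFP cells (limma adjusted p = 9.15e-05). Its A549-TIPARP values thus have no spread, and this p depends on the lowest listed value. How reads of shared exons were divided is not given for the other read-through entries either. These entries were picked after their values were known.

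Pseudogenes of the members can share reads with their parent genes. Of 105 pseudogene entries, 103 were at the lowest listed value in all 6 libraries. MRPL45P2 was listed at 8.52, 6.67 and 7.30 TPM and then 9.86, 7.998 and 11.6 TPM, beside MRPL45 values of 65.4 TPM or more. MRPS31P5 was listed at 4.03 TPM or less in every library, beside MRPS31 values of 20.9 TPM or more. The levels of MRPL45 and MRPS31 are uncertain by what such copies may have taken.

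The promoters of the members were read from RefSeq windows (GRCh38.p14) that run from 250 bases before to 50 bases after each start site, and 70 of the 78 genes matched. The motif AGATGGC, the core of sites recognised by the factor YY1, was found on either strand in 23 of the 70 genes (32.9%), beside 9.28% of 10344 analysed genes and 6.63% of all 27305 genes with a window. Of its 24 occurrences 18 were on the gene's own strand, and in 13 the ATG within it is an annotated start codon. These 13 are printed with the motif in capitals and up to 8 neighbouring bases on each side, as read on the gene's strand (plus for MRPL22, MRPL45, MRPL49, MRPS18B, MRPS30 and MRPS7, minus for the others), to show that in these genes the letters open the coding sequence as well as lying at the promoter.
MRPL22: agggcgaaAGATGGCggcggca
MRPL38: cggagggaAGATGGCggcgccct
MRPL45: cgggaacaAGATGGCagccccca
MRPL46: agaacgaaAGATGGCggcgcccg
MRPL49: gcaggtaaAGATGGCagctacca
MRPL50: ctcatcgaAGATGGCggcgcgat
MRPS10: gaccggcaAGATGGCggcgcgga
MRPS18A: gtttttgaAGATGGCggccctca
MRPS18B: gtacgtcaAGATGGCggcgtctg
MRPS24: ttggcccaAGATGGCggcctccg
MRPS27: acgctccaAGATGGCtgcctcca
MRPS30: gcgggcaaAGATGGCggcggcca
MRPS7: gccagccaAGATGGCtgcccccg
The strings were read from chr5:154941101-154941122, chr17:75904863-75904885, chr17:38297174-38297196, chr15:88467365-88467387, chr11:65122337-65122359, chr9:101398580-101398602, chr6:42217837-42217859, chr6:43687767-43687789, chr6:30617856-30617878, chr7:43869483-43869505, chr5:72320209-72320231, chr5:44808953-44808975 and chr17:75261891-75261913, in the same order, and the first base of the motif lies between position 8 and position 37 after the start site.

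The genes with this motif included MRPS10 and MRPS24, the members with the lowest and the highest fold change. With its read-through entry added, MRPS24 had a log2 fold change of 0.033. The median log2 fold change was -0.17 both for the 23 genes with the motif and for the 47 without it. The windows of these extremes are shown in full, MRPS10 at chr6:42217812-42218111 and MRPS24 at chr7:43869468-43869767, both on the minus strand, with the ETS motif CCGGAAG and the YY1 motif in capitals. The window of the read-through entry at chr7:43906547-43906846, also on the minus strand, follows. It starts far upstream of the MRPS24 window and holds neither motif.
MRPS10: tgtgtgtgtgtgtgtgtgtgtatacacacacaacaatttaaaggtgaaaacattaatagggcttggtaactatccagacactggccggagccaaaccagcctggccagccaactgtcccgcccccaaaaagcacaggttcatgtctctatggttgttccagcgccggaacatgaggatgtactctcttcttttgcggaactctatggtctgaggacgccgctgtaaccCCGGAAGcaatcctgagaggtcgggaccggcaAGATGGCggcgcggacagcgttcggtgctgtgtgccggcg
MRPS24: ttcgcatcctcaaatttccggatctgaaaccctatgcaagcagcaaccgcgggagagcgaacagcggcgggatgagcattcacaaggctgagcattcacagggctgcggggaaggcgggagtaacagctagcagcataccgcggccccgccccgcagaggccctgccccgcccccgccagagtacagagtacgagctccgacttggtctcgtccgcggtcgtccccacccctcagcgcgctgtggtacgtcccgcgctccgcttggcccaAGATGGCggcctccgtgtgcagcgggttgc
URGCP-MRPS24: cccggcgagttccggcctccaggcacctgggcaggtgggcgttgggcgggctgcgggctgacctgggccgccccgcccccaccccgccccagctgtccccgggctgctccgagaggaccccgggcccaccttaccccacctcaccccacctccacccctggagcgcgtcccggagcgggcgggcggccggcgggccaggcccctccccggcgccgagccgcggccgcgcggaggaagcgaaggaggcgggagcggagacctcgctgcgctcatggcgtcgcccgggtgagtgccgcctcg
The ETS motif, the core of sites bound by GABPA and related factors, was present in 30 of the 70 genes (42.9%), beside 22.5% of the analysed genes and 12.2% of all genes. The median log2 fold change was -0.16 with it and -0.17 without it. The motif GCGCATG, part of the site of NRF1, was found in 7 of the 70 genes, beside 9.04% of the analysed genes and 5.30% of all genes. The motif TNGCGTG, the core bound by the aryl hydrocarbon receptor, was also found in 7 of the 70, beside 9.35% of the analysed genes. The SP1 motif GGGCGG was found in 61.4% of the members and 76.5% of the analysed genes, and the TATA motif TATAAA in 5.71% and 8.34%. All motifs were searched on both strands, a match is a description of letters, and the ETS and YY1 motifs do not overlap each other in the MRPS10 window.

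Genes that act with the mitoribosome were counted in the same way. None passed the adjusted threshold in any of the lists that follow, and none exceeded 2-fold. The 5 mitoribosome proteins with other names, such as DAP3, all had a lower mean with TIPARP, with a median log2 fold change of -0.14. Of 26 genes for mitoribosome assembly and ribosomal RNA modification, 17 had a lower mean and 9 a higher one (median -0.12). All 16 mitochondrial translation factors had a lower mean (median -0.22), as did 14 of 17 mitochondrial aminoacyl-tRNA synthetases (median -0.17) and 9 of 12 genes of mitochondrial transcription and replication (median -0.28). Of 9 nuclear regulators of mitochondrial genes, among them NRF1, GABPA and YY1, 8 were analysed and 8 had a lower mean (median -0.21).

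Of the nuclear subunits of oxidative phosphorylation, 49 of 76 analysed genes had a lower mean and 27 a higher one (median -0.049). Of the cytosolic ribosomal proteins, 9 of 82 analysed genes had a lower mean and 73 a higher one (median 0.092). A549-TIPARP replicate 3 was the lowest library for 73.1% of the members, 22.4% of the oxidative phosphorylation subunits and 2.44% of the cytosolic ribosomal proteins. Over all analysed genes it was the lowest for 23.4%. It was also the lowest for 83.3% of the genes of mitochondrial transcription and replication, 62.5% of the translation factors, 3 of the 5 mitoribosome proteins with other names, 52.9% of the aminoacyl-tRNA synthetases and 13 of the 26 assembly genes. The differences between these lists were not tested. The entries of the 13 proteins encoded by the mitochondrial genome, which the mitoribosome makes, were at the lowest listed value in all 6 libraries. Whether reads of these genes were assigned to these entries is not given in the sources used here. The value therefore does not show that the transcripts were absent, and these genes are not analysed here.

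**Figure D5:**
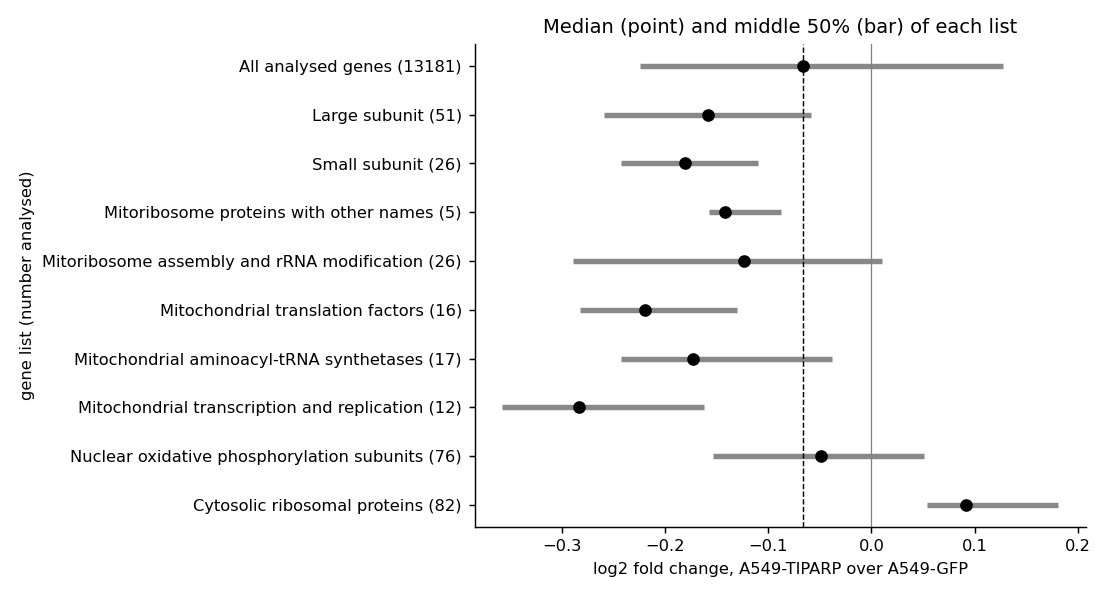
Log2 fold change (A549-TIPARP over A549-GFP, x axis) of the mitochondrial ribosomal protein genes by subunit and of related gene lists (y axis, with the number of genes analysed). Points are medians, bars span the middle 50% of the genes and the dashed line is the median of all analysed genes. The large and small subunit medians are -0.16 and -0.18, the nuclear oxidative phosphorylation subunits lie at -0.049 and the cytosolic ribosomal proteins at 0.092.

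The relation of the members to transcript GC content differed between libraries. The canonical transcripts of the members had a median length of 1242 bases, beside 2998 bases for all analysed genes with a match. For each gene, a library was compared with the mean of the other libraries of its line. Across the 78 members this difference correlated with transcript GC content at r = -0.56 in A549-GFP replicate 1, 0.41 in A549-GFP replicate 3 and 0.31 in A549-TIPARP replicate 1. In the other libraries r was between -0.17 and 0.19. Over all analysed genes with a match, r was -0.27, 0.23 and 0.054 in the same order, and between -0.26 and 0.17 in the others. With log2 transcript length, r in A549-GFP replicate 1 was 0.43 for the members and 0.10 for all genes. Elsewhere it was between -0.28 and 0.14 and between -0.29 and 0.11. These correlations are across genes of the same library, which are not independent, and are given as a description. When each library was corrected for GC content, 58 of 78 members had a lower mean, with a median log2 fold change of -0.13. The 39 shorter and the 39 longer transcripts had medians of -0.17 and -0.16, and A549-TIPARP replicate 3 was below the mean of the other A549-TIPARP libraries for 36 and 34 of them.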

How the data were processed

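RNA of 3 A549-GFP and 3 A549-TIPARP samples was sequenced as paired-end, poly(A)-selected stranded libraries. With Strand NGS the authors mapped these reads on hg38 transcripts, and they deposited log2 TPM for 53826 entries per library. The software version, annotation release and treatment of reads matching several genes are not given in the sources used here. The lowest deposited value is 0, and TPM above it summed to between 998332 and 998442 per library, which means that TPM under 1 was raised to 1. Depth cannot be read from TPM, and no counting error was computed.

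Genes above 2 TPM in at least 1 of 6 libraries were analysed, which gave 13181 genes. Fold changes are differences of mean deposited log2 values. A count model had been planned for the case of counts, and limma 3.58.1 (R 4.3.3; variance trend, Benjamini-Hochberg adjustment over 13181 genes, no block) was used on log2(TPM + 1), after it was tested on simulated data. Fold changes on that scale understate changes of low genes. Correction for GC content used lowess curves (span 0.3) on GENCODE 44 canonical transcripts, which matched 98.3% of analysed genes and all members. Members and lists were chosen with earlier results of these data known. Genes named by rule were the 5 largest and 5 smallest fold changes, the 3 highest and 3 lowest levels, the MRPS24 locus, the MRPS18 paralogues, the stalk proteins and the largest difference in each structural group. Alternatives were a leave-one-out series, rescaling, removal of small RNA entries, GC correction, other pseudocounts and filters, and a replicate block.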

Additional observations from a re-analysis of the deposited data

How the results depend on the processing

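Under 18 alternative fits 0 members were called by limma, and the count past 2-fold stayed at 0 in each alternative that gives one. An unadjusted limma p under 0.05 was reached by 3 members with GC correction, by 2 without A549-GFP replicate 1 and by at most 1 in every other fit. The share of all analysed genes under that limit was not counted for these fits. The median log2 fold change of the members was -0.10 after median-ratio rescaling, where the median of all analysed genes was -0.00156, and ranged from -0.23 to -0.077 when 1 library was left out, where the median of all analysed genes ranged from -0.17 to 0.047. Genes without overlap between the lines in either direction numbered 4 after rescaling (5.13%, beside 11.98% of all analysed genes in either direction), 13 after GC correction (16.7%, beside 13.4%) and 14 to 23 when 1 library was left out: 28.2% beside 13.9%, 28.2% beside 27.7% and 21.8% beside 30.7% without A549-GFP replicates 1, 2 and 3, and 21.8% beside 11.7%, 29.5% beside 16.1% and 17.9% beside 13.5% without A549-TIPARP replicates 1, 2 and 3. An alternative chosen after seeing the data left out both A549-GFP replicate 2 and A549-TIPARP replicate 3. It gave a median of -0.060, 59 members with a lower mean, 27 genes without overlap, of which 23 (29.5%) had lower A549-TIPARP values, beside 8.64% of all analysed genes, and 4 had higher ones, beside 26.5%, and a log2 fold change of -6.04 for URGCP-MRPS24 (limma adjusted p = 0.0309). That entry ranged from -6.00 to -3.07 when 1 library was left out, and without A549-TIPARP replicate 3 its limma adjusted p was 0.000633. In both of these fits every A549-TIPARP value left was at the lowest listed value, so they say nothing of the spread. The sign also turned for small differences. MRPL11 came to 0.032 with GC correction, with or without the block, 0.060 after rescaling and 0.00803 without small RNA entries. MRPS14 came to 0.092 with GC correction, with or without the block, 0.051 after rescaling, 0.000623 without small RNA entries and 0.066 without both libraries. MRPS18C came to 0.030 with GC correction, with or without the block, and 0.13 without both libraries. Without both libraries MRPL45 was at -0.042, MRPS18A at 0.00434, MRPS27 at -0.046 and MRPS31 at 0.018. When 1 library was left out, the range was -0.087 to 0.13 for MRPL10, -0.19 to 0.14 for MRPL11, -0.00581 to 0.13 for MRPL45, -0.26 to 0.13 for MRPL51, -0.048 to 0.032 for MRPS14, -0.22 to 0.11 for MRPS18C, -0.011 to 0.39 for MRPS9 and -0.17 to 0.027 for URGCP. The cause of these changes was not tested.

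With the replicate number as a block, 0 members and 1 gene of all analysed were called by limma, against 0 and 2 without it. Same-numbered libraries deviated from their group means with correlations of 0.41, -0.49 and -0.36 across all genes, so the numbers were not taken as pairs. Fits on counts were not run, because the tables hold TPM.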
